A study of Mus musculus with 24 samples.

Results

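The genes described here are 46 mouse genes of the cell cycle, measured in liver RNA of 6 genotypes. They comprise 18 genes of the G1/S transition and DNA replication and 28 genes of G2 and mitosis (G2/M). They were chosen by gene symbol as known genes of these phases, not by a threshold on measured values, although earlier results of these data were known when the list was drawn up. Each symbol was matched to 1 of the 33019 gene rows of the count table, and all 46 had enough counts to be tested. The livers came from C57BL/6J mice aged 2 months, in 6 groups of 4 libraries. In p62 TKO livers a hepatic deletion of p62, the autophagy receptor encoded by Sqstm1, is labelled in addition to those of Atg5 and Tsc1. In Nrf2 TKO livers the third deletion is that of Nrf2, the antioxidant transcription factor encoded by Nfe2l2. DKO livers are labelled with the deletions of Atg5 and Tsc1 together, Atg5 KO livers and TSC1 KO livers with 1 of the 2, and WT livers with none. Atg5 is needed to form autophagosomes, and Tsc1 holds back mTORC1, a kinase complex that drives growth. The 2 TKO groups and the DKO group thus share the losses of Atg5 and Tsc1. The sources used here give no Cre driver, deleted exons or sex of the mice.

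Entry into S phase is driven by D-type and E-type cyclins, which lead to phosphorylation of RB proteins and release E2F factors to switch on genes of origin licensing, the replisome and deoxynucleotide synthesis. Genes of G2 and mitosis are held down in resting cells by the DREAM complex, which binds a promoter element named CHR, and are switched on later in the cycle by B-MYB and FOXM1, often together with NF-Y at CCAAT boxes. Most hepatocytes of the adult liver are quiescent and many are polyploid, so transcripts of mitosis are scarce in a resting liver.

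Because the 2 phases are known for different promoter elements, promoters of 6 members are shown, the G1/S members Rrm1, Mcm6 and Cdt1 and the G2/M members Top2a, Cdk1 and Bub1b. Each sequence runs 5′ to 3′ on the strand of the gene, from 200 bases before to 30 bases after the start given by RefSeq on GRCm38.p6. The windows are Rrm1 (chr7:102441495-102441724, plus strand), Mcm6 (chr1:128359676-128359905, minus strand), Cdt1 (chr8:122567815-122568044, plus strand), Top2a (chr11:99024160-99024389, minus strand), Cdk1 (chr10:69352883-69353112, minus strand) and Bub1b (chr2:118598011-118598240, plus strand). Capitals mark matches, on either strand, to the E2F motif TTCCCGC together with its forms TTCGCGC, then TTGCCGC and also TTGGCGC, to the CHR motif TTTGAA together with its variant TTCGAA, and to the CCAAT box.
Rrm1: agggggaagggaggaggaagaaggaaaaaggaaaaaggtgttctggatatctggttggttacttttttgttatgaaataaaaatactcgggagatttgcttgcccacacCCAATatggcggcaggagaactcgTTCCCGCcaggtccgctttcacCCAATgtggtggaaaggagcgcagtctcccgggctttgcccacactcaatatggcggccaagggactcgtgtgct
Mcm6: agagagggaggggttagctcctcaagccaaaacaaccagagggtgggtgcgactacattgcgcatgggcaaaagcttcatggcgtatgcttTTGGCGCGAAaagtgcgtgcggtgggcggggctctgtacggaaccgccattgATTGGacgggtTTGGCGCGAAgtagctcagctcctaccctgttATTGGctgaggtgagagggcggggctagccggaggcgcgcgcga
Cdt1: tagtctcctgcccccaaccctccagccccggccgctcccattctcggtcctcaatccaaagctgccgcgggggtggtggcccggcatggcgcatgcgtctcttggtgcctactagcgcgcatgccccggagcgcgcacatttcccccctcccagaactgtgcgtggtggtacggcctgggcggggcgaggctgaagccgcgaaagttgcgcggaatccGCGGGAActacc
Top2a: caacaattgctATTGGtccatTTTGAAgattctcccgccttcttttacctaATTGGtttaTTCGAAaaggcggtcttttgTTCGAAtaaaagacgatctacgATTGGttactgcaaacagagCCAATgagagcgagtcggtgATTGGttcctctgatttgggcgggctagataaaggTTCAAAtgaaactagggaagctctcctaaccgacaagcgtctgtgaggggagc
Cdk1: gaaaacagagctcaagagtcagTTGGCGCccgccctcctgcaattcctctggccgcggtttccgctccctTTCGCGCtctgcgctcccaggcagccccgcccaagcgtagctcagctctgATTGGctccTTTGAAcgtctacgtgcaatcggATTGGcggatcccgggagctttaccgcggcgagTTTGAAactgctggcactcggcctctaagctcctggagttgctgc
Bub1b: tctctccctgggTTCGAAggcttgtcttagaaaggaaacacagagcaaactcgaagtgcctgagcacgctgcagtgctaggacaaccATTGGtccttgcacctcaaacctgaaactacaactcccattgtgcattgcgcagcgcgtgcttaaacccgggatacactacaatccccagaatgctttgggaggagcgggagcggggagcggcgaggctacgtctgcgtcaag
In these windows Mcm6 held 4 E2F matches in 2 overlapping pairs, while Rrm1 and Cdt1 held 1 E2F match each. Top2a held 4 CHR matches, Cdk1 held 2 and Bub1b held 1. Cdk1 also held 2 E2F matches, so the elements did not divide the members strictly by phase.

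Over windows from 250 bases before to 50 bases after the start, 14 of the 18 G1/S members and 23 of the 28 G2/M members had a RefSeq promoter, and Ccna2, Ccne2, Ccnd1, Aurkb, Kif20a, Tpx2, Mcm4, Gins2 and Foxm1 had none in the table used. An E2F motif stood in 57.1% of the G1/S promoters, 13.04% of the G2/M promoters and 9.69% of all 27025 promoters in the table. A CHR motif stood in 14.3% of the G1/S promoters, 82.6% of the G2/M promoters and 19.4% of all promoters. CCAAT stood in 57.1%, 87.0% and 37.9% of the same sets, and CHR together with CCAAT in 14.3%, 78.3% and 7.70%. An E2F match overlapped CCAAT in Ccnb1 and Mcm7, and another E2F match in Mcm3, Mcm5, Mcm6 and Mcm7. A match describes letters in these windows and was not tested for binding.

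Libraries held 10494080 to 13057467 counts each. Levels are CPM, counts scaled to library size with TMM factors, changes are log2 fold changes ± SE from edgeR's quasi-likelihood test with 4 libraries per group, and calls were made at an adjusted p under 0.05 (Benjamini-Hochberg, 15851 genes). Whether the 4 libraries of a group are 4 animals is not stated in the labels, and the p-values measure the spread between libraries only. Whole-gene counts did not check the Atg5 and Tsc1 labels: Atg5 stood at 38.6 to 46.7 CPM in Atg5 KO and 22.5 to 31.4 CPM in WT livers, and Tsc1 at 29.1 to 33.8 CPM in TSC1 KO and 33.1 to 36.7 CPM in WT livers. Nfe2l2 stood at 8.69 to 17.7 CPM in Nrf2 TKO and 92.8 to 162 CPM in DKO livers. Sqstm1 stood at 249, 439, 363 and 774 CPM in p62 TKO replicates 1 to 4, against 508 to 691 CPM in WT livers. The library labelled p62 TKO replicate 4 thus lay above all WT libraries for the gene its label names as deleted, and p62 TKO counts are given with and without it. The defining hepatocyte genes Alb, Apoa1 and Ttr and 5 other hepatocyte markers summed to 34576 to 46122 CPM in p62 TKO livers, 70266 to 91806 in Nrf2 TKO, 11849 to 17145 in DKO, 44698 to 110940.0 in Atg5 KO livers, 79166 to 93143 in TSC1 KO and 79772 to 101166 in WT livers, so that liver was present in every library but at different levels.

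Cell cycle transcripts were scarce in WT livers and higher in 4 of the 5 mutant genotypes. In p62 TKO livers 41 of the 46 genes rose above WT, 13 of 18 G1/S and 28 of 28 G2/M genes, where 28% of all genes tested rose, 22.9% fell and 50.9% did either. In Nrf2 TKO livers 34 genes rose, 10 of G1/S and 24 of G2/M, where 22.4% of all genes rose, 17.1% fell and 39.5% did either, but 9 of these calls (Birc5, Ccnb2, Cenpa, Kif11, Mcm2, Mcm4, Mcm5, Tpx2 and Ttk) were lost when at least 1 of the libraries was left out. Fitting the Nrf2 TKO and WT libraries alone left 20 called, 8 of G1/S and 12 of G2/M. Of the 34, 11 were not tested in that fit because they fell under the filter on low counts. In DKO livers 38 genes rose, 12 of G1/S and 26 of G2/M, and Tk1 alone fell, where 37.1% of all genes rose, 32.3% fell and 69.3% did either. In Atg5 KO livers 39 genes rose, 13 of G1/S and 26 of G2/M, where 18.6% of all genes rose, 11.3% fell and 29.9% did either. In TSC1 KO livers only Cdt1 and Cdk1 rose, 4.35% of the 46 genes, where 8.79% of all genes rose, 7.6% fell and 16.4% did either.

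The change of G2/M genes exceeded that of G1/S genes on the log2 scale in the 4 genotypes. The median log2 fold change against WT was 1.34 for G1/S and 3.88 for G2/M genes in p62 TKO livers, 0.74 and 1.96 in Nrf2 TKO livers, 1.27 and 3.30 in DKO livers, 1.06 and 2.92 in Atg5 KO, and 0.30 and 0.62 in TSC1 KO livers, while the median of all genes tested lay between 0.00 and 0.08. Within each library, the mean log2 CPM of the G1/S genes relative to WT minus that of the G2/M genes was -1.79, -2.36, -1.88 and -2.10 in p62 TKO livers, -0.85, -1.27, -0.70 and -0.72 in Nrf2 TKO and -1.003, -1.87, -1.32 and -1.30 in DKO livers. The same difference was -1.43, -0.74, -1.71 and -0.98 in Atg5 KO and 0.12, -0.13, 0.02 and -0.43 in TSC1 KO livers, against -0.09, 0.25, -0.22 and 0.06 in WT livers. All 16 libraries of the first 4 genotypes lay below all WT libraries in this measure, and the TSC1 KO libraries overlapped them. In TSC1 KO livers, where 2 genes were called, the means themselves still lay above those of all WT libraries, at 0.41 to 0.59 in TSC1 KO and -0.18 to 0.10 in WT livers for the G1/S genes, and at 0.39 to 1.02 in TSC1 KO and -0.27 to 0.32 in WT livers for the G2/M genes. No p is given for these measures, because the members were chosen with results known. The size of the difference depended on the prior count added before taking logs, and with 0.5 in place of 2 the mean was -2.43 in place of -2.03 in p62 TKO livers, -1.22 in place of -0.88 in Nrf2 TKO livers, -1.76 in place of -1.37 in DKO livers, -1.58 in place of -1.22 in Atg5 KO livers and -0.30 in place of -0.11 in TSC1 KO livers. With that prior count the TSC1 KO libraries ran from -0.69 to -0.02 and overlapped the WT libraries, at -0.39 to 0.40.

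**Figure D1:**
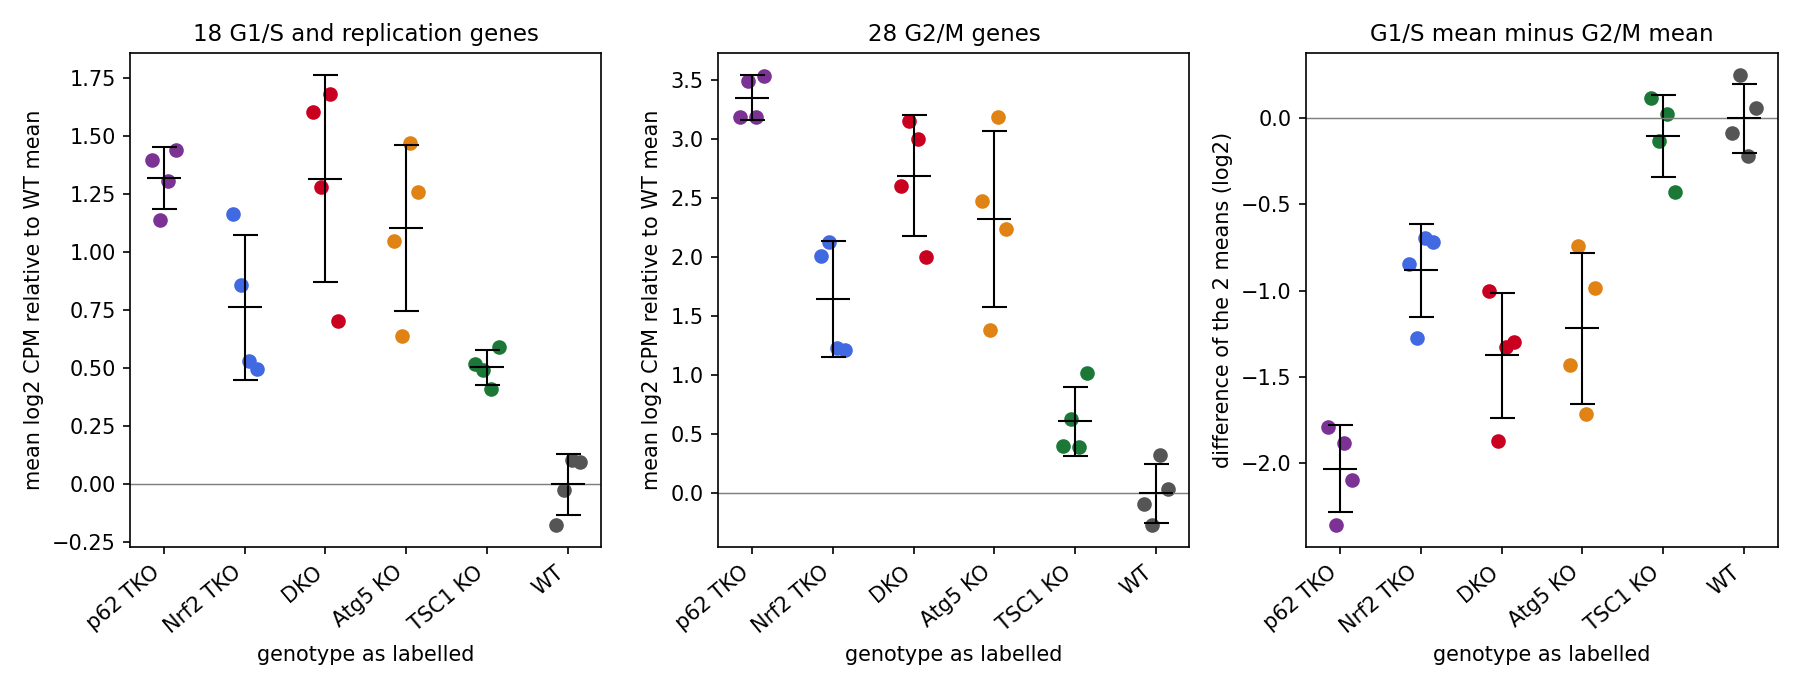
Each point is 1 library, and the vertical axis gives the mean log2 CPM relative to the WT mean over 18 G1/S genes, over 28 G2/M genes, and the difference G1/S minus G2/M, by genotype, with mean and SD over 4 libraries. The G2/M mean reached 3.35 in p62 TKO and 2.69 in DKO livers while the G1/S mean was 1.32 in both, and the TSC1 KO libraries overlapped WT in the difference, with a mean of -0.11, or -0.30 with a prior count of 0.5.

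On a linear scale the G1/S genes stood higher, and the median gain over WT was larger for the G2/M genes in p62 TKO livers and for the G1/S genes in the other 4 mutant genotypes. Per kb of exon, the median G1/S gene stood at 2.40 CPM in p62 TKO livers, 1.69 in Nrf2 TKO, 2.49 in DKO, 2.25 in Atg5 KO, 1.57 in TSC1 KO and 1.004 in WT livers. The median G2/M gene stood at 1.49 CPM per kb in p62 TKO livers, 0.366 in Nrf2 TKO, 1.04 in DKO, 0.763 in Atg5 KO, 0.177 in TSC1 KO and 0.116 in WT livers. As a difference from WT, the median gain in CPM per kb was 1.20 for G1/S and 1.31 for G2/M genes in p62 TKO livers, but 0.502 and 0.265 in Nrf2 TKO, 1.16 and 0.778 in DKO, 0.874 and 0.560 in Atg5 KO and 0.371 and 0.0479 in TSC1 KO livers. The larger fold of the G2/M genes thus went with a low WT level, a median of 21 counts per gene summed over the 4 WT libraries. In a bulk sample fewer cycling cells and less RNA per cycling cell cannot be told apart.

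Markers of other liver cells differed between the genotypes as well. Cholangiocyte markers (Krt7, Krt19, Sox9, Epcam, Spp1, Cftr and Cldn4) summed to 2376 to 3595 CPM in p62 TKO livers, 1581 to 2831 in Nrf2 TKO, 6658 to 9968 in DKO, 435 to 1083 in Atg5 KO livers, 556 to 923 in TSC1 KO and 62.3 to 93.3 in WT livers. Spp1 alone made up most of this sum in every library. All 7 markers rose above WT in TSC1 KO livers too, where 8.79% of all genes rose. Macrophage markers summed to 365 to 568 CPM in p62 TKO livers, 145 to 204 in Nrf2 TKO, 268 to 421 in DKO, 206 to 571 in Atg5 KO livers, 47 to 110.3 in TSC1 KO and 152 to 256 in WT livers, and none of the 8 was at 0 in a group. The DKO sum holds opposite changes, from -3.56 to 3.21 on the log2 scale against WT. There 5 of the 8 rose and 2 (Clec4f and Vsig4) fell, where 37.1% of all genes rose and 32.3% fell. Lymphocyte markers summed to 11.5 to 25.1 CPM in p62 TKO livers, 4.75 to 16.9 in Nrf2 TKO, 10.8 to 21 in DKO, 11.1 to 19.9 in Atg5 KO livers, 2.9 to 6.01 in TSC1 KO and 3.41 to 7.37 in WT livers. Stellate cell and fibroblast markers summed to 322 to 854 CPM in p62 TKO livers, 354 to 953 in Nrf2 TKO, 672 to 839.8 in DKO, 487 to 813 in Atg5 KO livers, 243 to 345 in TSC1 KO and 179.8 to 296 in WT livers. Their part in the cell cycle changes was not tested.

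**Figure D2:**
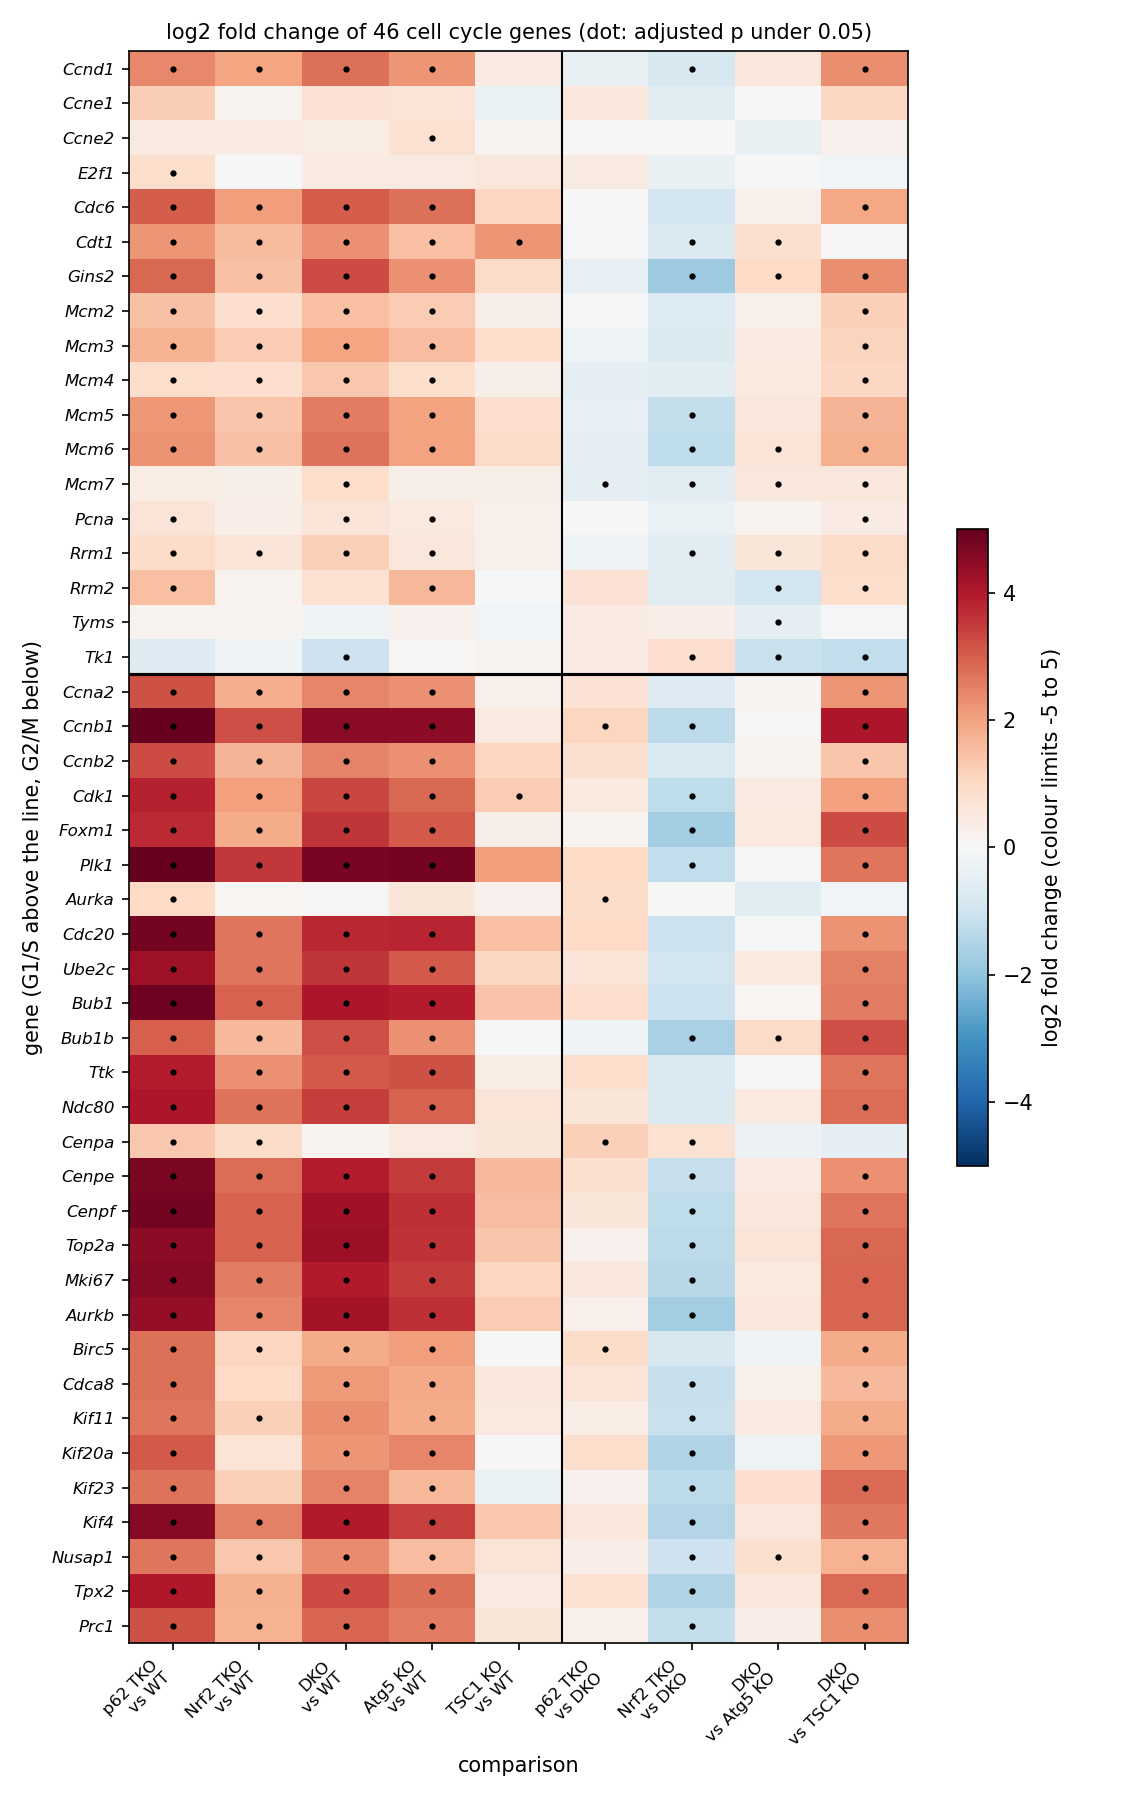
Rows are the 46 genes in the order of their roles and columns the 9 comparisons of genotypes. Colour gives the log2 fold change, limited to -5 and 5, and a dot marks an adjusted p under 0.05. The columns of p62 TKO, Nrf2 TKO, DKO and Atg5 KO against WT are filled with increases in the G2/M rows, TSC1 KO against WT holds 2 dots, and Nrf2 TKO against DKO holds 25 decreases and 2 increases.

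Among the 4 regulators of G1 and G1/S, Ccnd1 rose in 4 mutant genotypes, while E2f1 and Ccne2 rose in 1 each and Ccne1 did not pass. That is 1 of the 4 in DKO and in Nrf2 TKO livers, where 37.1% and 22.4% of all genes rose. In p62 TKO and in Atg5 KO livers it is 2 of the 4, where 28% and 18.6% rose. Ccnd1 (chromosome 7, 144929931 to 144939925, minus strand) encodes the cyclin that partners CDK4 and CDK6 early in G1. It stood at 89.8, 44.6, 68.6 and 47.7 CPM in p62 TKO livers, 32.4, 61.2, 45 and 46.4 in Nrf2 TKO, 82.2, 78.7, 113 and 47.6 in DKO, 56.8, 53.3, 44.5 and 65.3 in Atg5 KO, 10.3, 20.9, 17.8 and 14.7 in TSC1 KO and 16, 14.3, 11.2 and 5.97 in WT livers. All 16 libraries of p62 TKO, Nrf2 TKO, DKO and Atg5 KO lay above all WT libraries, and TSC1 KO overlapped WT. Ccnd1 rose by 2.76 ± 0.31 (adjusted p = 8.4e-08) in DKO livers, and its log2 fold change against WT was 2.40 in p62 TKO livers, 1.96 in Nrf2 TKO and 2.21 in Atg5 KO livers, each called. E2f1, an activator of S phase genes, stood at 9.2, 9.39, 11 and 13 CPM in p62 TKO and 9.14, 9.43, 8.86 and 3.61 in DKO livers, against 6.13, 5.43, 8.36 and 3.17 in WT livers. It rose in p62 TKO livers (0.88, adjusted p = 0.013), with all p62 TKO libraries above WT, and did not pass against WT in the other 4 mutant genotypes. Ccne2 rose in Atg5 KO livers (0.77, adjusted p = 0.019), a call lost without Atg5 KO replicate 4 (0.63) or WT replicate 1 (0.59). Ccne1, the other E-type cyclin, did not pass against WT in any of the 5 genotypes, and its log2 fold change ran from -0.33 in TSC1 KO to 1.23 in p62 TKO livers.

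All 10 genes of origin licensing and the replisome rose in DKO livers, 9 rose in p62 TKO and in Atg5 KO livers and 8 in Nrf2 TKO livers. Of all genes tested, 37.1% rose in DKO, 28% in p62 TKO, 18.6% in Atg5 KO and 22.4% in Nrf2 TKO livers. Cdc6 and Cdt1 load the MCM helicase, whose 6 subunits are Mcm2 to Mcm7, Gins2 is a subunit of the GINS complex that activates it, and Pcna is the sliding clamp. Gins2 (chromosome 8, 120578633 to 120589304, minus strand) stood at 2.9, 3.76, 3.97 and 3.82 CPM in p62 TKO livers, 1.29, 1.71, 1.45 and 0.869 in Nrf2 TKO, 6.4, 3.95, 5.89 and 2.81 in DKO and 2.29, 1.17, 3.26 and 2.67 in Atg5 KO livers, against 0.454, 0.347, 0.741 and 0.365 in WT livers. No library of these 4 mutant groups fell within the WT range, and the highest Gins2 values were in DKO replicates 1 and 3. The TSC1 KO libraries also lay above WT, without a call, with 8, 12, 8 and 10 counts against 4, 3, 7 and 3. Its change in DKO livers was 3.28 ± 0.36 (adjusted p = 3.3e-08).

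Mcm6 (chromosome 1, 128331590 to 128359664, minus strand), whose promoter held the 2 overlapping pairs of E2F motifs, stood at 28.1, 19.6, 23.6 and 23.8 CPM in p62 TKO livers, 17.6, 15.2, 11.2 and 11.3 in Nrf2 TKO, 40.1, 30.2, 42.9 and 20.2 in DKO, 20.4, 8.63, 33 and 19.8 in Atg5 KO, 8.64, 9.77, 6.86 and 13.8 in TSC1 KO and 3.52, 4.97, 5.93 and 5.85 in WT livers. Every mutant library lay above every WT library. Mcm6 rose by 2.72 ± 0.32 (adjusted p = 1.5e-07) in DKO livers and missed the threshold in TSC1 KO livers (0.95, adjusted p = 0.051). Mcm5 (chromosome 8, 75109569 to 75128439, plus strand) stood at 15, 9.26, 17.8 and 5.11 CPM in DKO and 2.95, 0.924, 1.27 and 2.8 in WT livers, without overlap, and its change was 2.57 ± 0.43 (adjusted p = 1.4e-05). The other MCM genes rose less in DKO livers, by 1.98 for Mcm3, 1.501 for Mcm2, 1.34 for Mcm4 and 0.86 for Mcm7, although the subunits form 1 complex. Mcm7 alone of the 10 genes did not pass in p62 TKO (0.37) and in Atg5 KO livers (0.29). Pcna rose by 0.64 in p62 TKO livers, 0.66 in DKO and 0.50 in Atg5 KO livers, the last call being lost without Atg5 KO replicate 3 (0.40), and did not pass in Nrf2 TKO livers (0.34, adjusted p = 0.089).

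Cdt1 was the 1 licensing gene that rose in all 5 mutant genotypes. Cdt1 (chromosome 8, 122568015 to 122573554, plus strand) stood at 9.27, 8.05, 7.21 and 6.07 CPM in p62 TKO livers, 7.03, 5.95, 3.58 and 2.9 in Nrf2 TKO, 8.97, 5.9, 10.8 and 6.07 in DKO, 2.82, 3.06, 4.94 and 7.62 in Atg5 KO, 8.2, 6.26, 7.34 and 8.67 in TSC1 KO and 1.25, 1.39, 1.59 and 2.31 in WT livers. Every mutant library lay above every WT library. The change was 2.22 ± 0.34 (adjusted p = 0.00014) in TSC1 KO and 2.28 ± 0.34 (adjusted p = 2.5e-06) in DKO livers, and 1.496 in Atg5 KO, 1.58 in Nrf2 TKO and 2.23 in p62 TKO livers. Cdc6, the partner of Cdt1, rose by 3.02 in DKO livers and stood at 1.94, 1.47, 1.67 and 0.752 CPM there, against 0, 0.231, 0.212 and 0.244 CPM in WT livers. Its change in TSC1 KO livers, 1.08, did not pass (adjusted p = 0.27).

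The 4 genes of deoxynucleotide synthesis did not move together. In DKO livers 1 of them rose and 1 fell, where 37.1% of all genes rose and 32.3% fell. In p62 TKO and Atg5 KO livers 2 rose and in Nrf2 TKO livers 1, where 28%, 18.6% and 22.4% of all genes rose. Rrm1 and Rrm2 encode the large and the small subunit of ribonucleotide reductase, Tyms makes dTMP and Tk1 salvages thymidine. Rrm1 (chromosome 7, 102441695 to 102469771, plus strand) stood at 18.3, 17.1, 19.2 and 18.8 CPM in p62 TKO livers, 16.1, 16.4, 14.4 and 13.6 in Nrf2 TKO, 22.3, 20.3, 26.7 and 19.2 in DKO, 12.1, 12.5, 18.1 and 14.8 in Atg5 KO and 9.42, 10.4, 9.63 and 8.89 in WT livers, and all libraries of the 4 mutant genotypes lay above WT. Its change in DKO livers was 1.21 ± 0.14 (adjusted p = 8.4e-08). Rrm2 (chromosome 12, 24708241 to 24714146, plus strand) stood at 10.2, 12.2, 11.8 and 13.8 CPM in p62 TKO livers, 9.31, 6.96, 9.12 and 3.41 in DKO, 13.2, 5.84, 22.1 and 13.1 in Atg5 KO and 2.72, 4.74, 2.75 and 6.94 in WT livers. It rose in p62 TKO (1.49 ± 0.34, adjusted p = 0.001) and Atg5 KO livers (1.67 ± 0.35, adjusted p = 0.00092) and did not pass in DKO livers (0.75 ± 0.34, adjusted p = 0.056), where replicate 4 lay within the WT range. Tyms (chromosome 5, 30058202 to 30073617, minus strand) did not pass against WT in any genotype and its change in DKO livers was -0.22 ± 0.19 (adjusted p = 0.3).

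Tk1 went the other way in DKO livers. Tk1 (chromosome 11, 117815526 to 117826092, minus strand) stood at 11.9, 10.8, 12.1 and 14.2 CPM in p62 TKO livers, 28.6, 13.2, 14 and 9.95 in Nrf2 TKO, 11.3, 10.5, 9.27 and 5.57 in DKO, 18.9, 35, 13.1 and 12.1 in Atg5 KO, 21.4, 23.5, 19.4 and 20.9 in TSC1 KO and 18.6, 17.6, 19.4 and 20.3 in WT livers. All DKO and all p62 TKO libraries lay below all WT libraries, and the change was -1.05 ± 0.30 (adjusted p = 0.0035) in DKO and -0.63 ± 0.30 (adjusted p = 0.082) in p62 TKO livers, the second not called. When TMM was replaced by total counts, its change in DKO livers was -0.06 and did not pass. Tk1 overlaps Afmid on the other strand, whose mean level was 6.81 CPM in p62 TKO livers, 14.2 in Nrf2 TKO, 4.06 in DKO, 22.1 in Atg5 KO, 24.8 in TSC1 KO and 25.9 in WT livers. The sources used here do not say how strand was handled in counting, so reads of Tk1 and Afmid cannot be told apart. Of the 46 genes 15 overlap a gene on the other strand, 5 of G1/S and 10 of G2/M.

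**Figure D3:**
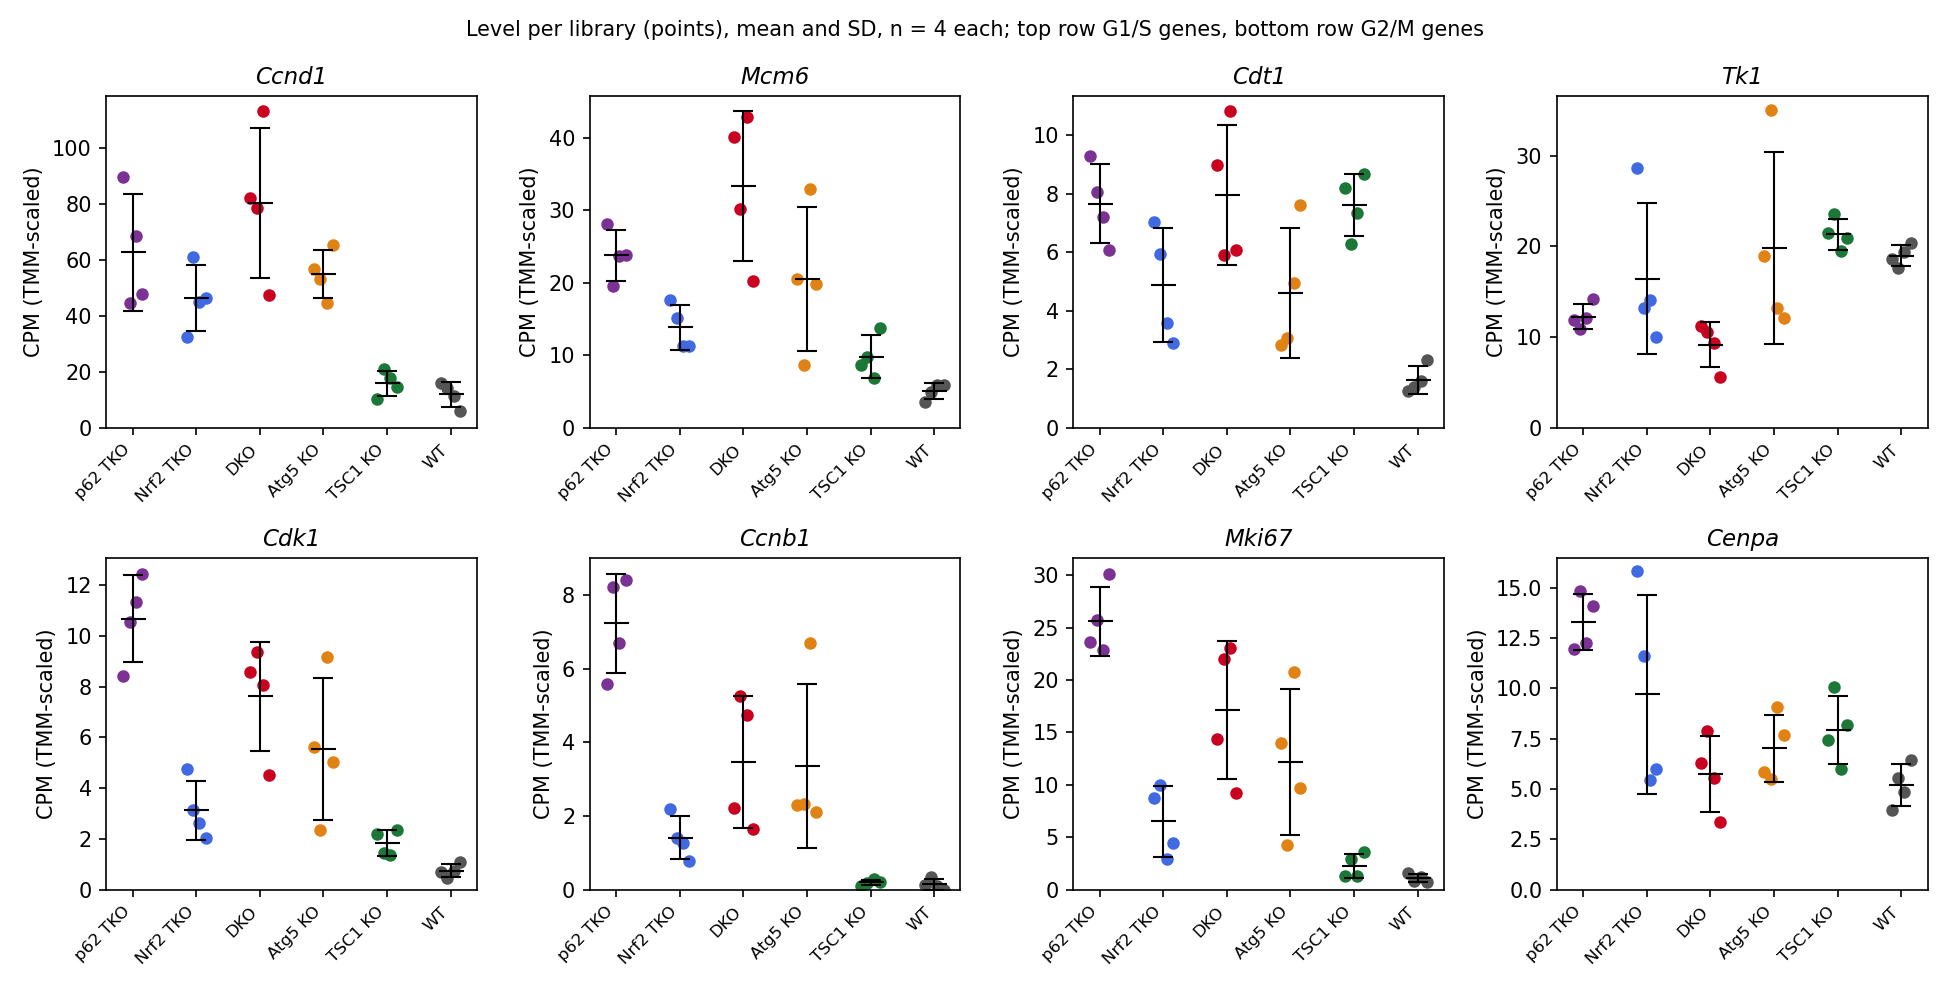
CPM per library, by genotype, of 4 G1/S genes (Ccnd1, Mcm6, Cdt1 and Tk1) and 4 G2/M genes (Cdk1, Ccnb1, Mki67 and Cenpa), each panel with its own axis from 0. Cdt1 is high in all mutant genotypes, TSC1 KO included, Tk1 is lowest in DKO livers, and Cdk1, Ccnb1 and Mki67 are highest in p62 TKO livers and closest to WT in TSC1 KO livers.

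Of the 9 cyclins, kinases and regulators of G2/M, 8 rose in DKO, Nrf2 TKO and Atg5 KO livers and 9 in p62 TKO livers. The shares of all genes that rose were 37.1%, 22.4%, 18.6% and 28% in these genotypes, in that order. Cdk1 (chromosome 10, 69335146 to 69352938, minus strand), the kinase that starts mitosis, stood at 8.42, 10.6, 11.3 and 12.5 CPM in p62 TKO livers, 4.75, 3.12, 2.62 and 2.03 in Nrf2 TKO, 8.57, 9.37, 8.08 and 4.51 in DKO, 5.64, 2.34, 9.16 and 5.03 in Atg5 KO, 2.19, 1.42, 1.35 and 2.36 in TSC1 KO and 0.681, 0.462, 0.741 and 1.1 in WT livers. Every mutant library lay above every WT library. The change was 3.34 ± 0.39 (adjusted p = 9.2e-08) in DKO and 1.29 ± 0.43 (adjusted p = 0.042) in TSC1 KO livers. The call in TSC1 KO livers was lost in 6 of the 8 fits that left out 1 of these libraries (TSC1 KO replicate 1, 2 or 4 or WT replicate 1, 2 or 3), with changes from 1.11 to 1.38.

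Ccnb1 (chromosome 13, 100778650 to 100786570, minus strand), cyclin B1, the main partner of CDK1, stood at 5.59, 8.23, 6.69 and 8.41 CPM in p62 TKO livers, 2.18, 1.41, 1.26 and 0.773 in Nrf2 TKO, 2.23, 5.25, 4.74 and 1.65 in DKO, 2.29, 2.34, 6.69 and 2.11 in Atg5 KO, 0.109, 0.19, 0.29 and 0.197 in TSC1 KO and 0.113, 0.347, 0.106 and 0 in WT livers. TSC1 KO overlapped WT and all other mutant libraries lay above both groups. Its change was 5.57 ± 0.60 (adjusted p = 1.6e-07) in p62 TKO and 4.51 ± 0.62 (adjusted p = 8.3e-07) in DKO livers, or 6.37 and 5.28 without WT replicate 2, the highest WT library. Ccna2 (chromosome 3, 36564865 to 36572150, minus strand), cyclin A2 of S phase and G2, stood at 9.27, 10.6, 7.87 and 11.7 CPM in p62 TKO and 6.11, 7.31, 6.93 and 3.46 in DKO livers, against 1.13, 0.924, 0.847 and 1.46 in WT livers, without overlap. Ccna2 rose by 2.44 ± 0.36 (adjusted p = 3e-06) in DKO livers. Ccnb2, cyclin B2, rose by 2.46 in DKO livers and Aurka, a kinase of spindle poles, did not pass there (0.08).

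Foxm1 (chromosome 6, 128362967 to 128376146, plus strand), the transcription factor of G2/M genes, stood at 4.18, 7.15, 3.53 and 6.7 CPM in p62 TKO livers, 1.49, 1.93, 1.36 and 1.06 in Nrf2 TKO, 4.91, 4.66, 5.63 and 4.06 in DKO, 3.58, 1.98, 5.02 and 3.08 in Atg5 KO, 0.219, 0.379, 0.58 and 0.788 in TSC1 KO and 0.227, 0.231, 0.423 and 0.731 in WT livers. The DKO libraries were close together and the TSC1 KO libraries overlapped WT. Foxm1 rose by 3.56 ± 0.40 (adjusted p = 4.4e-08) in DKO livers. Plk1, a mitotic kinase, had 3 counts in all WT libraries together, and its CPM ratio to WT was 60.2 (20.4 to 294) in p62 TKO livers, 13.2 (4.28 to 66.4) in Nrf2 TKO, 29.9 (10.1 to 146) in DKO and 31.7 (10.6 to 156) in Atg5 KO livers, with 95% exact intervals that cover counting error only. Cdc20 and Ube2c, an activator and the E2 enzyme of the anaphase-promoting complex, rose by 4.77 and 4.23 in p62 TKO and by 3.76 and 3.58 in DKO livers.

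All 7 genes of the spindle checkpoint and kinetochore rose in p62 TKO and Nrf2 TKO livers, and 6 rose in DKO and Atg5 KO livers, all but Cenpa. Against WT, 28%, 22.4%, 37.1% and 18.6% of all genes rose in these genotypes, in the order named. Bub1b (chromosome 2, 118598211 to 118641591, plus strand), which encodes the checkpoint kinase BUBR1, stood at 4.74, 4.38, 4.78 and 3.74 CPM in p62 TKO livers, 1.68, 2.45, 1.26 and 1.26 in Nrf2 TKO, 5.43, 6.54, 5.16 and 3.51 in DKO, 2.52, 0.988, 4.3 and 2.76 in Atg5 KO and 0.681, 0.231, 0.635 and 0.609 in WT livers. These 4 mutant groups did not overlap WT, and 3 of the 4 DKO libraries were higher than every p62 TKO library. Bub1b rose by 3.23 ± 0.42 (adjusted p = 3.5e-07) in DKO livers. Cenpe (chromosome 3, 135212537 to 135273611, plus strand), the kinetochore motor, stood at 5.17, 7.51, 6.33 and 9.19 CPM in p62 TKO and 3.26, 6.25, 4.85 and 2.01 in DKO livers, against 0.113, 0.116, 0.318 and 0.487 in WT livers. Cenpe rose by 3.94 ± 0.59 (adjusted p = 3.2e-06) in DKO livers. Cenpf (chromosome 1, 189640606 to 189688086, minus strand), a large kinetochore protein of late G2, stood at 6.58, 8.67, 6.4 and 8.1 CPM in p62 TKO and 3.88, 7.72, 5.99 and 1.96 in DKO livers, against 0.113, 0.347, 0.212 and 0.365 in WT livers. Cenpf rose by 4.20 ± 0.59 (adjusted p = 1.3e-06) in DKO livers. For both genes the mutant and WT libraries were apart. The checkpoint kinase gene Bub1 had 3 counts over the WT libraries, all in replicate 3, and its CPM ratio to WT was 32.1 (10.8 to 158) in p62 TKO and 17.8 (5.94 to 87.7) in DKO livers (95% exact interval). Ttk, which encodes the checkpoint kinase MPS1, and Ndc80, of the microtubule-binding complex, rose by 3.05 and 3.45 in DKO livers, or by 4.02 and 5.25 without WT replicate 3. Cenpa, the histone H3 variant of centromeres, stood at 12, 14.8, 12.3 and 14.1 CPM in p62 TKO livers, 15.8, 11.6, 5.42 and 5.99 in Nrf2 TKO, 6.28, 7.9, 5.52 and 3.36 in DKO and 3.97, 5.54, 4.87 and 6.46 in WT livers, where DKO overlapped WT.

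The 5 genes of mitotic chromosomes and the chromosomal passenger complex rose in p62 TKO, DKO and Atg5 KO livers, and 4 of them rose in Nrf2 TKO livers. Among all genes tested 28%, 37.1%, 18.6% and 22.4% rose in these genotypes, in the order named. Top2a (chromosome 11, 98992943 to 99024189, minus strand), the topoisomerase that untangles sister chromatids, stood at 16.2, 16.8, 18.4 and 17.3 CPM in p62 TKO livers, 7.92, 7.95, 3.87 and 4.06 in Nrf2 TKO, 12.8, 18.5, 20.8 and 7.12 in DKO, 11.4, 4.49, 14.4 and 7.7 in Atg5 KO, 1.53, 2.28, 1.06 and 3.25 in TSC1 KO and 0.908, 0.231, 1.38 and 0.487 in WT livers. The p62 TKO libraries were close together, whereas DKO replicate 4 and Atg5 KO replicate 2 were well below the others of their groups, and TSC1 KO overlapped WT. Top2a rose by 4.26 ± 0.48 (adjusted p = 5.6e-08) in DKO livers. Mki67 (chromosome 7, 135689784 to 135716361, minus strand), the proliferation antigen Ki-67 that coats mitotic chromosomes, stood at 23.6, 25.8, 22.9 and 30.1 CPM in p62 TKO livers, 8.71, 9.96, 2.91 and 4.44 in Nrf2 TKO, 14.4, 22, 23 and 9.17 in DKO, 14, 4.22, 20.8 and 9.73 in Atg5 KO, 1.31, 2.94, 1.26 and 3.55 in TSC1 KO and 1.59, 0.809, 1.16 and 0.731 in WT livers. It was highest in p62 TKO replicate 4 and overlapped WT in TSC1 KO livers alone. Its change was 3.98 ± 0.51 (adjusted p = 5.2e-07) in DKO and 4.56 in p62 TKO livers.

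Aurkb, Birc5 and Cdca8 encode Aurora B, survivin and borealin, which form the passenger complex with INCENP. Aurkb (chromosome 11, 69045647 to 69051664, plus strand) stood at 3.14, 3.42, 4.27 and 2.11 CPM in DKO and 0.34, 0, 0.106 and 0.244 in WT livers. Aurkb rose by 4.16 ± 0.58 (adjusted p = 1.2e-06). Cdca8 (chromosome 4, 124918465 to 124939311, minus strand) stood at 3.94, 5.6, 4.59 and 1.65 CPM in DKO and 0.567, 0.924, 0.635 and 1.46 in WT livers. Cdca8 rose by 2.13 ± 0.41 (adjusted p = 6.6e-05). DKO and WT libraries did not overlap for either gene, although DKO replicate 4 was the lowest DKO library for both. Birc5 rose by 2.77 in p62 TKO livers, 1.07 in Nrf2 TKO, 1.86 in DKO and 2.08 in Atg5 KO livers, and Cdca8 did not pass in Nrf2 TKO livers (0.997, adjusted p = 0.067).

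The 7 genes of the spindle, its motors and cytokinesis rose in p62 TKO, DKO and Atg5 KO livers, and 5 of them rose in Nrf2 TKO livers. For comparison, 28%, 37.1%, 18.6% and 22.4% of all genes rose in these genotypes, in the order named. Kif4 (chromosome X, 100625737 to 100727214, plus strand), a chromokinesin, stood at 3.26, 4.11, 3.6 and 3.43 CPM in p62 TKO livers, 0.99, 1.19, 0.581 and 0.676 in Nrf2 TKO, 2.23, 3.24, 2.92 and 1.2 in DKO, 1.83, 0.629, 2.31 and 1.7 in Atg5 KO and 0.34, 0.116, 0.106 and 0 in WT livers. All libraries of the 4 mutant groups lay above WT. Its change in DKO livers was 3.98 ± 0.52 (adjusted p = 4.7e-07), or 4.81 without WT replicate 1. Nusap1 (chromosome 2, 119618298 to 119651244, plus strand), a spindle microtubule binder, stood at 5.43, 6.78, 5.89 and 3.71 CPM in DKO and 0.908, 1.62, 0.953 and 0.731 in WT livers. Nusap1 rose by 2.36 ± 0.33 (adjusted p = 1.4e-06). Prc1 (chromosome 7, 80294450 to 80316259, plus strand), which bundles the central spindle, stood at 3.54, 5.6, 7.61 and 3.31 CPM in DKO and 0.567, 0.924, 0.847 and 0.244 in WT livers. Prc1 rose by 2.93 ± 0.45 (adjusted p = 4.2e-06). Tpx2 (chromosome 2, 152847964 to 152895321, plus strand), the activator of Aurora A on the spindle, stood at 5.77, 8.67, 6.98 and 2.86 CPM in DKO and 0.113, 1.04, 0.953 and 0.365 in WT livers. Tpx2 rose by 3.26 ± 0.60 (adjusted p = 4.3e-05). DKO and WT libraries were apart for each of these genes. Of the kinesin genes Kif11, Kif20a and Kif23, Kif11 and the cytokinesis motor gene Kif23 rose by 2.32 and 2.49 in DKO livers, Kif11 by 2.998 without WT replicate 4. Kif20a rose by 2.19 in DKO livers. In Nrf2 TKO livers Kif20a (0.67) and Kif23 (1.19) did not pass.

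The counts in p62 TKO livers did not rest on the library labelled p62 TKO replicate 4: without it 41 genes again rose above WT, 13 of G1/S and 28 of G2/M. When libraries were scaled by total counts without TMM, the median log2 fold change of all genes against WT was 0.55 in p62 TKO livers, 0.39 in Nrf2 TKO, 1.07 in DKO, 0.37 in Atg5 KO and 0.14 in TSC1 KO livers. With that scaling 17 G1/S and 28 G2/M genes rose in p62 TKO and in DKO livers, 13 and 26 in Nrf2 TKO, 16 and 28 in Atg5 KO, and 2 and 1 in TSC1 KO livers. The share of higher genes among all genes called was 89.7% with total counts and 54.9% with TMM in p62 TKO livers, 86% and 56.6% in Nrf2 TKO livers, 86.3% and 53.4% in DKO livers, 94.2% and 62.1% in Atg5 KO livers, and 74.7% and 53.6% in TSC1 KO livers. Levels and changes given here are TMM-scaled unless another scaling or method is named.

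DKO livers were next compared with livers that had lost Atg5 or Tsc1 alone. Against TSC1 KO, 38 of the 46 genes were higher in DKO livers, 12 of G1/S and 26 of G2/M, and Tk1 was lower (-1.22, and -0.36 without a call with total counts alone), where 36.6% of all genes were higher, 30% lower and 66.7% either. Against Atg5 KO, 7 genes were higher, 15.2% of the 46, and 3 were lower, 6.52%, where 29.2% of all genes were higher, 27.3% lower and 56.5% either, so both shares lay below the background. The median change against Atg5 KO was 0.35 for G1/S and 0.44 for G2/M genes. By phase, 5 of 18 G1/S genes were higher (27.8%) and 3 lower (16.7%), and 2 of 28 G2/M genes were higher (7.14%). None of these shares exceeded that of all genes. Rrm1 was higher in DKO livers in all 4 libraries than in any Atg5 KO library (0.62 ± 0.14, adjusted p = 0.00046). Gins2 (1.01), Cdt1 (0.78), Mcm6 (0.70), Mcm7 (0.58), Bub1b (0.96) and Nusap1 (0.81) were also higher in DKO livers, with overlapping libraries. Tk1 (-1.11 ± 0.30, adjusted p = 0.0029), Rrm2 (-0.92) and Tyms (-0.45), all of deoxynucleotide synthesis, were lower in DKO livers. With total counts alone 26 members were called, all higher, where the median of all genes was 0.67, and Tk1 (-0.45), Rrm2 (-0.32) and Tyms (0.18) did not pass. Among all genes called 82.4% were higher with that scaling, against 51.7% with TMM. Leaving out 1 library gave 6 to 11 calls, and 6 without DKO replicate 2, DKO replicate 3 or Atg5 KO replicate 2.

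The interaction term asked whether the change in DKO livers differed from the sum of the changes in the single knockouts. It passed in 2 of the 46 genes, both lower than the sum, where 19.3% of all genes were lower, 15.5% higher and 34.8% either. For Cdt1 the term was -1.43 ± 0.45 (adjusted p = 0.016), and its change in DKO against TSC1 KO livers was 0.06 ± 0.29, adjusted p = 0.87, although it rose over WT in Atg5 KO livers as well. For Tk1 the term was -1.28 ± 0.42 (adjusted p = 0.021). The Cdt1 call was lost without Atg5 KO replicate 4 (-1.09) and that of Tk1 without Atg5 KO replicate 2 (-0.91), and both were lost with total counts alone (-0.96 and -0.75). The median of the term was -0.27 over the G1/S and -0.52 over the G2/M genes.

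The loss of p62 in addition to Atg5 and Tsc1 went with few called differences in cell cycle genes. Against DKO, 4 G2/M genes were higher in p62 TKO livers and 1 G1/S gene was lower, 8.70% and 2.17% of the 46 genes, where 22.3% of all genes were higher, 21.5% lower and 43.8% either. The median change was -0.05 over the G1/S and 0.64 over the G2/M genes, against -0.02 over all genes, and 27 of the 28 G2/M genes had a positive value while 24 of the 28 did not pass. The 5 genes called are given because they passed, a choice made after their values were seen. Cenpa stood at 12, 14.8, 12.3 and 14.1 CPM in p62 TKO and 6.28, 7.9, 5.52 and 3.36 in DKO livers, without overlap, and was higher by 1.21 ± 0.28 (adjusted p = 0.0014). Aurka stood at 7.01, 8.41, 7.06 and 9.42 CPM in p62 TKO and 4.17, 5.01, 4.38 and 3.26 in DKO livers, also without overlap, and was higher by 0.92 ± 0.25 (adjusted p = 0.0042). Neither of the 2 genes had risen in DKO livers over WT, so their rise above WT in p62 TKO livers (1.35 for Cenpa and 0.999 for Aurka) was not shared by the DKO group.

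Ccnb1 was higher in all p62 TKO than in all DKO libraries (1.06 ± 0.39, adjusted p = 0.031). Birc5 stood at 7.64, 9.84, 7.43 and 10.3 CPM in p62 TKO and 5.54, 6.84, 4.53 and 1.86 in DKO livers, without overlap (0.91 ± 0.33, adjusted p = 0.031). Mcm7 stood at 24.3, 18.5, 22 and 23.6 CPM in p62 TKO and 36.4, 25.5, 41 and 21.6 in DKO livers, which overlapped (-0.49 ± 0.17, adjusted p = 0.024). Without the library labelled p62 TKO replicate 4, 3 genes remained called: Cenpa, Aurka and Mcm7, while Ccnb1 (0.98) and Birc5 (0.83) did not pass. Cenpa and Aurka passed in each fit that left out 1 library of these 2 groups, while the count of calls was 3 without p62 TKO replicate 2 or 4 or DKO replicate 1, 3 or 4 and 8 without DKO replicate 2. Mcm7 did not pass without p62 TKO replicate 2 or 3 or DKO replicate 1 or 3, with values down to -0.33. With total counts alone 8 members were called, 1 G2/M gene higher and 7 G1/S genes lower, where the median of all genes was -0.48, and Ccnb1, Aurka and Birc5 no longer passed. Cholangiocyte markers were lower and hepatocyte markers higher in p62 TKO than in DKO livers, 7 of 7 and 8 of 8 called, and their part in these differences was not tested.

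The loss of Nrf2 in addition to Atg5 and Tsc1 went with lower cell cycle transcripts. Against DKO, 25 of the 46 genes were lower in Nrf2 TKO livers, 7 of 18 G1/S and 18 of 28 G2/M genes, where 29.2% of all genes were lower and 55.9% were called either way. The share was 64.3% of the G2/M and 38.9% of the G1/S genes. Tk1 and Cenpa were higher, 4.35% of the 46 genes, where 26.7% of all genes were. The median change was -0.57 over the G1/S and -1.17 over the G2/M genes, against -0.05 over all genes. All 7 genes of the spindle and its motors were lower, as were 4 of 5 passenger and chromosome genes, 4 of 9 cyclins and kinases, 3 of 7 checkpoint and kinetochore genes, 5 of 10 licensing and replisome genes, Ccnd1 (-0.80) and Rrm1.

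In 9 of the 46 genes every Nrf2 TKO library lay below every DKO library. That is a smaller share than the 24.8% of all genes tested for which this held. Gins2 was lower (-1.82 ± 0.31, adjusted p = 2.8e-05), the largest decrease among the members called, and Mcm6 followed (-1.27 ± 0.30, adjusted p = 0.00094). Rrm1 was lower (-0.54 ± 0.14, adjusted p = 0.0016). Foxm1 was lower (-1.70 ± 0.33, adjusted p = 0.00012). Bub1b was lower (-1.61 ± 0.35, adjusted p = 0.00047), and so were Aurkb (-1.74 ± 0.43, adjusted p = 0.0017) and Kif4 (-1.45 ± 0.38, adjusted p = 0.0025). Kif20a (-1.52) and Prc1 (-1.20) completed the set. In Cdk1 (-1.28 ± 0.32, adjusted p = 0.0018), Top2a (-1.31 ± 0.37, adjusted p = 0.0046) and Mki67 (-1.39 ± 0.41, adjusted p = 0.0065) the groups overlapped, DKO replicate 4 being the lowest DKO library for each of them.

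Tk1 was higher in Nrf2 TKO than in DKO livers by 0.84 ± 0.30 (adjusted p = 0.02), and the call was lost without Nrf2 TKO replicate 1 (0.51) or DKO replicate 4 (0.67). Cenpa was higher by 0.76 (adjusted p = 0.028), with 15.8, 11.6, 5.42 and 5.99 CPM in Nrf2 TKO and 6.28, 7.9, 5.52 and 3.36 CPM in DKO livers, and the call was lost without Nrf2 TKO replicate 1 (0.48) or 2 (0.66) or DKO replicate 3 (0.74) or 4 (0.57). The count of called members was 18 without Nrf2 TKO replicate 3 or DKO replicate 3 and 36 without DKO replicate 4, and with total counts alone it was 43, all lower, where the median of all genes was -0.71 and 16.1% of all genes called were higher, against 47.7% with TMM. Against WT, the p62 TKO, Nrf2 TKO and DKO values share the WT libraries, and the p62 TKO and Nrf2 TKO values against DKO share the DKO libraries. Cholangiocyte markers (7 of 7) and macrophage markers (6 of 8, with 2 of 8 higher) were lower and hepatocyte markers (8 of 8) higher in Nrf2 TKO than in DKO livers, and their part in the difference was not tested.

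**Figure D4:**
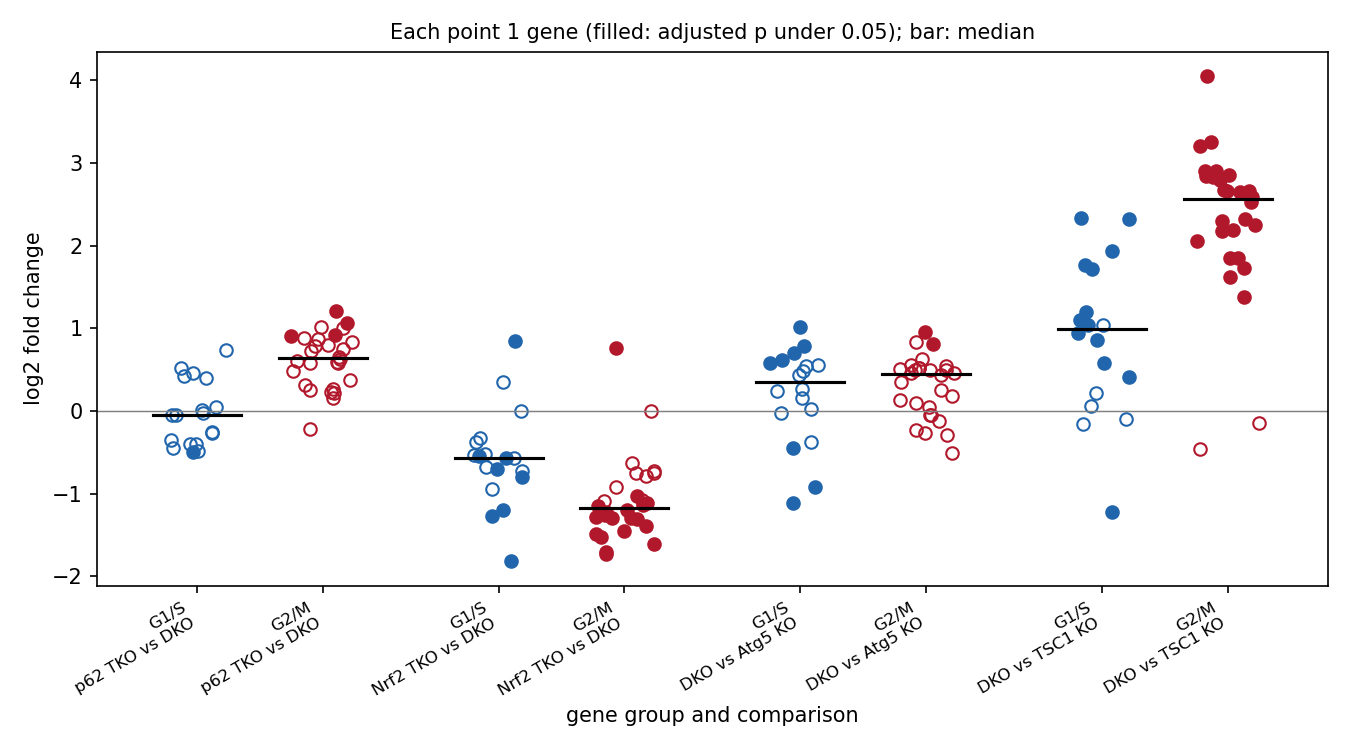
Each point is the log2 fold change of 1 gene, for the 18 G1/S and the 28 G2/M genes, in p62 TKO against DKO, Nrf2 TKO against DKO, DKO against Atg5 KO and DKO against TSC1 KO. Filled points have an adjusted p under 0.05 and bars are medians: the G2/M median is 0.64 for p62 TKO and -1.17 for Nrf2 TKO against DKO.

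In Atg5 KO and DKO livers single libraries were the highest or lowest of their group in most cell cycle genes. Atg5 KO replicate 3 was the highest of its group in 28 of 28 G2/M and 13 of 18 G1/S genes and replicate 2 the lowest in 26 of 28 G2/M and 11 of 18 G1/S genes, and Mki67, for example, ranged there over 14, 4.22, 20.8 and 9.73 CPM. In these 2 libraries the hepatocyte markers summed to 59946 and 110940.0 CPM and the macrophage markers to 571 and 206 CPM. DKO replicate 4 was the lowest DKO library in 17 of 18 G1/S and 27 of 28 G2/M genes, with 15930.4 CPM of hepatocyte markers, within the range of the other DKO libraries. This library was also the lowest of DKO in macrophage (268 CPM), cholangiocyte (6658 CPM) and lymphocyte markers (10.8 CPM). In stellate cell and fibroblast markers (839.8 CPM) and endothelial markers (125.8 CPM) it was the highest. DKO replicate 2 was the highest in 22 of 28 G2/M but 2 of 18 G1/S genes, and DKO replicate 3 in 11 of 18 G1/S genes. Among Nrf2 TKO libraries, replicate 1 was the highest in 13 of 18 G1/S genes and replicate 2 in 16 of 28 G2/M genes. The part of the markers in this spread was not tested.

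Further genes of the cycle outside the 46 were read from lists drawn up with the same results known. Of 8 CDK inhibitors, brakes on the cyclin-dependent kinases, 5 rose in p62 TKO livers (62.5%, against 28% of all genes), 4 in Nrf2 TKO livers (50% against 22.4%), 7 in DKO livers (87.5% against 37.1%), 4 in Atg5 KO livers (50% against 18.6%) and 1 in TSC1 KO livers (12.5% against 8.79%). Cdkn1a, the p21 gene, stood at 49.9, 79.3, 49.6 and 81.8 CPM in p62 TKO livers, 18.9, 32.3, 76 and 150.4 in Nrf2 TKO, 89.2, 47.3, 56.8 and 86.6 in DKO, 31.5, 21, 58.5 and 25.5 in Atg5 KO and 11.6, 16.1, 6.56 and 0.609 in WT livers, and all libraries of these mutant groups lay above WT. It rose by 2.90 in p62 TKO livers, 2.99 in Nrf2 TKO, 3.003 in DKO and 1.97 in Atg5 KO livers. Cdkn2b, the p15 gene, stood at 2.83, 2.15, 1.69 and 3.04 CPM in p62 TKO livers, 1.49, 0.818, 0.775 and 0.966 in Nrf2 TKO, 11.6, 5.6, 10.8 and 6.17 in DKO and 0.227, 0, 0.318 and 0.365 in WT livers. It rose by 5.17 ± 0.50 (adjusted p = 4.7e-09) in DKO livers and was lower than in DKO in both p62 TKO (-1.81) and Nrf2 TKO livers (-3.08), with no overlap. Cdkn2a, the gene of p16 and p19ARF, rose in DKO livers. It had 3 counts over the WT libraries, and its CPM ratio to WT was 27.4 (9.21 to 134) in DKO livers (95% exact interval). It was lower than in DKO in p62 TKO (-1.97) and Nrf2 TKO livers (-3.47).

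Of 8 other D cyclins and interphase CDKs 5 rose (62.5%) and 1 fell (12.5%) in DKO livers, where 37.1% of all genes rose and 32.3% fell, and those that rose include Ccnd2 (2.95) and Cdk4 (1.44). Of 17 genes of RB, E2F and DREAM 7 rose in DKO livers, 41.2% and thus near the share of all genes, and 2 fell (11.8%). E2f8, a repressor of the E2F family, stood at 1.71, 1.24, 1.51 and 0.401 CPM in DKO and 6.58, 4.39, 16.8 and 17.1 in WT livers and fell by 3.20 on the log2 scale, with no overlap. Rbl1, the p107 gene, rose by 1.60. Of 29 other replication genes tested 18 rose (62.1%) and 2 fell (6.9%) in DKO livers. In p62 TKO livers 13 rose (44.8%, against 28% of all genes) and in Nrf2 TKO livers 8 (27.6% against 22.4%). In Atg5 KO livers 7 rose (24.1% against 18.6%) and in TSC1 KO livers 2 (6.90% against 8.79%). Except in DKO and p62 TKO livers, these shares lay near those of all genes. Lig1, the ligase of Okazaki fragments, stood at 16.4, 11.7, 14.3 and 19.2 CPM in p62 TKO livers, 10.4, 11.9, 5.62 and 6.66 in Nrf2 TKO, 44.7, 31.7, 49.9 and 27.6 in DKO and 2.16, 2.66, 2.86 and 2.19 in WT livers. Lig1 rose by 3.96 ± 0.32 (adjusted p = 2.7e-10) in DKO livers.

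Mcm10, an initiation factor, behaved unlike Mcm2 to Mcm7: it stood at 13.7, 17.7, 16.8 and 13.2 CPM in p62 TKO livers, 48.4, 22.7, 53.8 and 17.7 in Nrf2 TKO, 8.4, 4.24, 4.32 and 3.21 in DKO, 80.1, 60.7, 50.1 and 63.2 in Atg5 KO, 127, 64.6, 84.1 and 101 in TSC1 KO and 108, 64, 191 and 186 in WT livers. It was lowest in DKO livers, where it fell by 4.77 on the log2 scale (adjusted p = 2.6e-09), and lay below all WT libraries in both TKO groups as well. Overlapping genes were looked up for the 46 genes only, so reads of another gene in the Mcm10 count were not checked.

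Of 38 other mitotic genes 31 rose in p62 TKO livers (81.6%, against 28% of all genes), 22 in Nrf2 TKO livers (57.9% against 22.4%), 30 in DKO livers (78.9% against 37.1%), 27 in Atg5 KO livers (71.1% against 18.6%) and 1 in TSC1 KO livers (2.63% against 8.79%). A single gene of the list fell in each of p62 TKO, Nrf2 TKO, DKO and TSC1 KO livers. Cdc25b, the phosphatase that activates CDK1, rose by 3.60 in DKO livers and Incenp, the scaffold of the passenger complex, by 2.74. Against DKO, 22 of the 38 were lower in Nrf2 TKO livers (57.9%, against 29.2% of all genes) and 3 higher (7.89% against 26.7%). In p62 TKO livers 6 were higher than in DKO (15.8% against 22.3%) and 4 lower (10.5% against 21.5%). Both p62 TKO shares lay below those of all genes. Of Bub3 and Zwint, the genes of this list with the highest level, Bub3 was 1 of 7 that did not pass in DKO livers (0.03) and Zwint rose by 0.43. Of 7 genes of cytokinesis and hepatocyte ploidy 6 (85.7%) rose in p62 TKO and in DKO livers, against 28% and 37.1% of all genes. In Atg5 KO livers 5 rose (71.4% against 18.6%), in Nrf2 TKO 3 (42.9% against 22.4%) and in TSC1 KO 0. Racgap1, of the central spindle, rose by 3.87 in p62 TKO livers, 1.99 in Nrf2 TKO, 3.32 in DKO and 2.55 in Atg5 KO livers. Anln, anillin of the contractile ring, rose by 3.10 in DKO livers and was lower in Nrf2 TKO than in DKO livers (-1.44).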

How the data were processed

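Polyadenylated liver RNA was sequenced as single reads of 75 bases from 24 stranded libraries, 4 for each of 6 genotypes, per the labels' protocols. The authors deposited whole-number counts per gene, made with Trimmomatic 0.36, HISAT2 2.1.0 and HTSeq on GRCm38 per the submitters' processing notes. The HTSeq version, the annotation release and the strand setting are not given in those notes. The table held 33019 gene IDs, of which 32938 were named from GENCODE M21 and 81 had no symbol there. Libraries summed to 10494080 to 13057467 counts, which leaves genes with a few counts per library imprecise.

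Counts were tested with edgeR 4.0.16 (TMM factors, filterByExpr, robust quasi-likelihood test) in R 4.3.3 with limma 3.58.1, in 1 fit of all 6 genotypes with 18 residual degrees of freedom. P-values were adjusted by Benjamini-Hochberg over 15851 genes. A standard error is the log2 fold change over the root of F. Log2 CPM took a prior count of 2. For members and CDK inhibitors with at most 3 counts over the WT libraries, ratios to WT carry exact 95% intervals of counting error. The fits were tested on simulated data, in which only genes over 1 CPM in WT livers were changed. Scarcer genes, most G2/M members among them, were thus not covered by that test. Alternatives were DESeq2 1.42.0, edgeR with DESeq2's size factors, scaling by total counts, omission of the filter, the replicate number as a block, only the groups compared, another prior count and each library left out. Motifs and figures were made in Python 3.11.15 with pandas 2.3.3, numpy 2.4.6 and matplotlib 3.10.9.

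The members and lists were chosen with earlier results of these data known. Any member may be named, and full statistics go, in each role, to at most 4 genes, those with the lowest adjusted p in DKO against WT. Related lists are represented by at most 4 genes of lowest adjusted p and 2 of highest mean CPM. Genes called in p62 TKO against DKO, in DKO against Atg5 KO and in Nrf2 TKO against DKO were chosen after their values were seen. A few genes of the lists are not reported here.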

Additional observations from a re-analysis of the deposited data

Results flagged for a closer look

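Among 276 sets of 4 libraries (46 genes in 6 genotypes), 10 held a library set apart from the other 3 by Dixon's criterion. Chance alone gives about 1 in 20 sets, a larger share than the 10 of 276 found. E2f1 was low in DKO replicate 4, at 3.61 CPM against 8.86 to 9.43 CPM in the other DKO libraries. Pcna and Ccnb1 were high in Atg5 KO replicate 3, at 64.5 CPM against 49.04 to 50.1 CPM and at 6.69 CPM against 2.11 to 2.34 CPM in the other Atg5 KO libraries. Mcm7 was high in Nrf2 TKO replicate 3, at 22.1 CPM against 20.5 to 20.7 CPM. Cenpf was low in TSC1 KO replicate 1, at 0.219 CPM against 0.870 to 0.985 CPM. The other 5 lay in WT livers, where these genes had a few counts: Cdc6 was at 0 CPM in replicate 1 against 0.212 to 0.244 CPM, Plk1 at 0 CPM in replicate 4 against 0.106 to 0.116 CPM, Cdc20 at 0.635 CPM in replicate 3 against 0.227 to 0.244 CPM, Bub1 at 0.318 CPM in replicate 3 against 0 CPM, and Bub1b at 0.231 CPM in replicate 2 against 0.609 to 0.681 CPM.

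The change on losing Tsc1 differed between livers with and without Atg5 for Cdt1, with an interaction of -1.43, and for Tk1, with an interaction of -1.28, by edgeR's quasi-likelihood test of the difference itself. These are 4.35% of the 46 genes, where 34.8% of all genes passed in either direction. Each call was lost in a fit that left out 1 library, and both were lost with total counts alone.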

How the results depend on the processing

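DESeq2 and its size factors lost no call of a member. The call held under every alternative for 41 of 41 members in p62 TKO, 16 of 34 in Nrf2 TKO, 38 of 39 in DKO, 27 of 39 in Atg5 KO and 1 of 2 in TSC1 KO livers against WT, for 2 of 10 in DKO against Atg5 KO, 35 of 39 in DKO against TSC1 KO, 1 of 5 in p62 TKO against DKO and 12 of 27 in Nrf2 TKO against DKO, and for neither interaction. With DESeq2, TSC1 KO against WT had 4 called members in place of 2. With total counts alone there were 26 in DKO against Atg5 KO in place of 10, 8 in p62 TKO against DKO in place of 5 and 43 in Nrf2 TKO against DKO in place of 27, and the change of Tyms in DKO against Atg5 KO turned to 0.18 where it had been -0.45. The interaction then held 2 G1/S genes, both higher, with 76.9% of all genes called higher, against 44.4% with TMM; in p62 TKO against DKO these shares were 17.7% and 50.9%, and in DKO against TSC1 KO 85% and 54.9%. Without the filter the interaction had 1 called member in place of 2 and p62 TKO against DKO 3. When only the groups compared were fitted, called members were 4 in TSC1 KO and 20 in Nrf2 TKO against WT (34 in the full fit), 5 in DKO against Atg5 KO and 10 in p62 TKO against DKO, and 3691 of all genes were called in Nrf2 TKO against WT in place of 6262. In that setting 11 of the 34 in Nrf2 TKO and 9 of the 39 in Atg5 KO against WT were under the filter on low counts and untested. With a prior count of 0.5 the difference between the phases was -2.43 in p62 TKO livers, -1.22 in Nrf2 TKO livers and -1.76 in DKO livers. Leaving out 1 library gave 1 to 3 called members in TSC1 KO against WT (1724 to 2272 of all genes), 6 to 11 in DKO against Atg5 KO, 1 to 3 for the interaction and 3 to 8 in p62 TKO against DKO. The replicate number as a block left 1 called member in TSC1 KO against WT and moved no other count by over 1.5 times. It pairs no samples by the labels, and over 60 pairs of libraries with 1 number the deviations correlated by -0.28 to 0.26 (median -0.01), with 5 of 24 libraries correlating best with their own number. Apart from these untested members, the cause of these shifts was not tested. Depth limits the G2/M genes in WT livers, where a median of 21 counts per gene stood behind the 4 libraries.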
